A study of Mus musculus with 16 samples.

Results

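The 10 genes described here, Tmem70, Saraf, Fez2, Poldip2, Rab11a, Pdgfa, Spef1, Tm2d1, Tspan3 and Gde1, were chosen by their knockdown effects in these same mice. In each, Kdm7a knockdown went with a higher level under saline and a lower fitted level under morphine, and the difference between these effects passed the threshold over all genes. They are 10 of the 26625 genes in the table, and 10 of the 16 genes that passed in that difference, called the interaction below. All 10 had enough counts to be tested, together with 18826 genes in all. The name "flips with morphine" rests on the signs of the fitted values that chose the genes, so no call in these comparisons tests it. Knockdown raised the fitted level of all 10 under saline. Under morphine, Tmem70 and Spef1 alone passed the threshold as lower, and the other 8 genes had values below 0 that did not pass it. Tmem70 lay close to the threshold there (edgeR adjusted p = 0.0496), and Spef1 had only 9 to 18 counts a mouse in Kdm7a-shRNA + Morphine. The number of genes passing under morphine changed with the processing and with a mouse left out, as given below.

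RNA was taken from the medial prefrontal cortex (mPFC) of male C57BL/6 mice of 8 to 10 weeks. An adeno-associated virus had been injected on both sides of the mPFC, carrying a short hairpin RNA (shRNA) against Kdm7a or a control hairpin (NC-shRNA). The U6 promoter that drives the hairpin is not restricted to a cell type, and which cells of the tissue the virus had entered was not measured here. Place conditioning lasted 10 days, with 10 mg/kg morphine in the morphine groups and saline alone in the others, and tissue was taken on Day 17 after 7 days of withdrawal. There were 3 mice in Ctrl + Saline, 4 in Ctrl + Morphine, 5 in Kdm7a-shRNA + Saline and 4 in Kdm7a-shRNA + Morphine. The labels do not say whether a library holds tissue of 1 mouse. Each is called a mouse here, and the p-values cover the spread between these libraries.

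KDM7A is a histone demethylase that removes methyl groups associated with silent chromatin. The 10 genes belong to no single pathway. TMEM70 helps to assemble the mitochondrial ATP synthase and complex I. SARAF sits in the membrane of the endoplasmic reticulum and slows store-operated calcium entry. RAB11A is the small GTPase of recycling endosomes, which return receptors to the cell surface, and FEZ2 is a relative of the kinesin adaptor FEZ1. TSPAN3 is a tetraspanin, a membrane protein with 4 passes that organises other membrane proteins. GDE1 is a membrane glycerophosphodiesterase that can release N-acylethanolamines. PDGFA is the secreted growth factor ligand of PDGFRA on oligodendrocyte precursors. POLDIP2 was named for binding DNA polymerase delta, SPEF1 is a microtubule-bundling protein of cilia, and TM2D1 is a small transmembrane protein with a TM2 domain.

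The genes lie apart in the genome (GENCODE vM21 on GRCm38, the mm10 build). Tmem70 is on chromosome 1 at 16665207-16678275, Saraf on chromosome 8 at 34154575-34170821, Fez2 on chromosome 17 at 78369212-78418152 and Poldip2 on chromosome 11 at 78512193-78522736. Rab11a is on chromosome 9 at 64715299-64737758, Tspan3 on the same chromosome at 56131725-56165477, and Pdgfa on chromosome 5 at 138976014-138997370. Spef1 is on chromosome 2 at 131170261-131187282, Tm2d1 on chromosome 4 at 98355370-98383306 and Gde1 on chromosome 7 at 118688545-118705778. All 10 are protein-coding. The longest annotated transcript had a median of 2094.5 bases among them, against 3465.5 bases among the 14160 tested genes with an annotation. The sources do not say whether reads were counted by strand. Exons of Fez2 overlap those of Crim1 by 123 bases on the opposite strand. Those of Spef1 overlap Cdc25b by 92 bases and Gm14232 by 256 bases on the opposite strand. Spef1 also shares 20 bases with Cenpb on its own strand. Cdc25b and Cenpb had 1339 and 1733 counts over all mice, against 467 for Spef1. Pdgfa overlaps the antisense gene 6330403L08Rik by 813 bases. Gde1 overlaps Gm45236 by 229 bases on the opposite strand, and Rab11a overlaps Gm47308 by 107 bases on its own strand. Tm2d1 has a processed pseudogene, Gm18284, that aligns over 625 bases at 96.3% identity and has no row in the table used here, so where reads of the pseudogene were counted is not known.

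Because the 10 genes tended to move together, the sequence ahead of their start sites was examined. RefSeq promoter windows (GRCm38.p6) matched 7 of the 10 genes, with 2 windows for Pdgfa. Upstream sequence is shown for 3 of the genes, those with a long stretch outside annotated exons next to a start site on an annotated transcript. Capitals mark the GC box GGGCGG, the CCAAT box, and a core of ETS factor sites, CCGGAAG, each read on both strands.
Fez2 (chr17:78418153-78418402, minus strand): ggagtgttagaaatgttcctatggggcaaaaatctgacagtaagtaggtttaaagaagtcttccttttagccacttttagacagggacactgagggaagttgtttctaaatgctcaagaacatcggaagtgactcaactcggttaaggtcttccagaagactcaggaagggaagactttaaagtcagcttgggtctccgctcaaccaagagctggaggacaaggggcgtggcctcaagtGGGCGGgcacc
Rab11a (chr9:64737759-64738006, minus strand): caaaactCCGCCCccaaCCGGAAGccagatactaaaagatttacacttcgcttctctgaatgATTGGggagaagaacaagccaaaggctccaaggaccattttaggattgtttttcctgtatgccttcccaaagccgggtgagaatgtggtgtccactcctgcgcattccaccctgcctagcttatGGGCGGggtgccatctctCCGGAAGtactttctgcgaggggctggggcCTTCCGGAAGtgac
Gde1 (chr7:118705779-118705988, minus strand): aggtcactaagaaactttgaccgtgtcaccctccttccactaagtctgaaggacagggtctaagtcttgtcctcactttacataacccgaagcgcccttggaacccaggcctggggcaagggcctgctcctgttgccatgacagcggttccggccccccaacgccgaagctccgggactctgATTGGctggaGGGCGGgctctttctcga
Over the 250 bases upstream of each start, GGGCGG was found in 6 of the 8 windows and in 32.7% of all 32851 windows in the RefSeq table. The 6 windows were those of Fez2, Rab11a, Gde1 and Poldip2 and both of Pdgfa. In Poldip2 and Pdgfa no match lay in the stretch before an annotated exon. That stretch had 0 bases in Poldip2 and in one Pdgfa window and 47 bases in the other, so the lack of a match there says little. The 8 windows held from 4 (Spef1) to 30 (Poldip2) CpG, a C followed by a G, against a median of 6 over all windows. The part of base composition in the GGGCGG count was not tested. CCAAT was found in 3 of the 8 windows, those of Rab11a, Tspan3 and Gde1, and in 33.8% of all windows. CCGGAAG was found in the window of Rab11a alone among the 8, at 4 matches of which the last 2 overlap on opposite strands, and in 6.91% of all windows. The TATA box TATAAA was in none of the 8 windows and in 12.4% of all windows. The E-box CACGTG was in none and in 6.02%, and the cAMP response half-site TGACGT in none and in 6.47%. No motif searched was in all 8 windows.

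The libraries held between 6596991 and 12418112 counted reads, and values below are CPM, counts relative to a library size (in units of 1e+06) scaled by edgeR's TMM factor. Kdm7a itself stood at 9.08 to 9.78 CPM in Ctrl + Saline, 6.19 to 8.89 in Ctrl + Morphine, 4.92 to 6.07 in Kdm7a-shRNA + Saline and 3.01 to 6.28 in Kdm7a-shRNA + Morphine, from 35 to 93 counts a mouse. The range in Kdm7a-shRNA + Morphine crosses the lowest Ctrl + Morphine mouse. Markers of excitatory neurons such as Slc17a7 and Camk2a were present in the cortex samples, and the 4 striatal markers summed to 12.2 to 36.8 CPM. Ctrl + Saline replicate 1 and Kdm7a-shRNA + Morphine replicate 2 stood apart for the genes described here. In both mice all 10 genes lay above the mean of their group, and each was the highest mouse of its group for all 10. A call in the comparisons means an adjusted p under 0.05 over all tested genes and a fold change of at least 1.5.

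Tmem70 had the lowest interaction p of all tested genes (rank 1). Its levels were 28.0, 19.4 and 23.7 CPM in Ctrl + Saline and 62.5, 46.2, 46.7 and 72.4 CPM in Ctrl + Morphine. They were 64.8, 67.7, 72.9, 77.7 and 65.9 CPM in Kdm7a-shRNA + Saline and 27.7, 53.7, 34.3 and 33.4 CPM in Kdm7a-shRNA + Morphine. Every Ctrl + Saline mouse was below every Ctrl + Morphine and every Kdm7a-shRNA + Saline mouse, and every Kdm7a-shRNA + Morphine mouse was below every Kdm7a-shRNA + Saline mouse. With knockdown the fitted log2 difference was 1.56 ± 0.21 (SE) under saline and -0.61 ± 0.19 under morphine, an interaction of -2.17 ± 0.28. In whole tissue, less RNA per cell and fewer cells of a type cannot be told apart, here and for the genes below.

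Tm2d1 had the widest span of the 10 as a ratio of its highest to its lowest mouse. It stood at 35.6, 20.6 and 16.2 CPM in Ctrl + Saline and at 88.7, 55.1, 55.5 and 106 CPM in Ctrl + Morphine. It stood at 102, 90.9, 93.3, 115 and 96.4 CPM in Kdm7a-shRNA + Saline and at 30.8, 97.2, 34.1 and 33.8 CPM in Kdm7a-shRNA + Morphine. Replicate 2 of that last group lay within the range of Kdm7a-shRNA + Saline, while the other 3 mice lay among the Ctrl + Saline values. The fitted log2 knockdown difference was 2.05 ± 0.37 under saline and -0.64 ± 0.33 under morphine.

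For Gde1, the membrane glycerophosphodiesterase, levels were 32.9, 21.7 and 21.9 CPM in Ctrl + Saline and 77.8, 51.6, 44.2 and 77.1 CPM in Ctrl + Morphine. They were 90.1, 73.5, 78.8, 93.9 and 80.8 CPM in Kdm7a-shRNA + Saline and 36.9, 86.8, 39.5 and 38.5 CPM in Kdm7a-shRNA + Morphine. Replicate 2 of that group again lay within the range of Kdm7a-shRNA + Saline, while the other 3 mice lay between the highest Ctrl + Saline mouse and the lowest Ctrl + Morphine mouse. In Ctrl + Morphine, replicates 1 and 4 were the higher pair for Tmem70, Tm2d1 and Gde1 alike, and replicates 2 and 3 the lower pair. The fitted log2 difference of Gde1 was 1.71 ± 0.28 under saline and -0.31 ± 0.25 under morphine.

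Spef1 was the gene with the lowest fitted value under morphine and with few reads, 9 to 58 counts a mouse. Its levels were 3.70, 1.85 and 1.46 CPM in Ctrl + Saline and 4.69, 3.31, 3.65 and 4.71 CPM in Ctrl + Morphine. They were 4.94, 3, 4.50, 4.27 and 5.83 CPM in Kdm7a-shRNA + Saline and 1.38, 2.16, 1.37 and 1.48 CPM in Kdm7a-shRNA + Morphine. Spef1 was the one gene of the 10 in which every Kdm7a-shRNA + Morphine mouse lay below every Ctrl + Morphine mouse, and the one in which Ctrl + Saline overlapped Kdm7a-shRNA + Saline. The fitted log2 difference was 0.96 ± 0.30 under saline and -1.35 ± 0.30 under morphine.

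For Rab11a, the recycling endosome GTPase, levels were 39.0, 21.5 and 20 CPM in Ctrl + Saline and 57.8, 47.3, 50.4 and 59.7 CPM in Ctrl + Morphine. Kdm7a-shRNA + Saline mice had 60.7, 55.4, 62.3, 63.1 and 62.9 CPM, and Kdm7a-shRNA + Morphine mice had 30.0, 55.2, 41.9 and 34.8 CPM. Kdm7a-shRNA + Morphine was below Kdm7a-shRNA + Saline in every mouse, with its replicate 2 just under the lowest of them. The fitted log2 difference was 1.19 ± 0.21 under saline and -0.41 ± 0.19 under morphine. For Tspan3, the tetraspanin, levels were 87.2, 67.3 and 62.7 CPM in Ctrl + Saline and 142, 114, 116 and 151 CPM in Ctrl + Morphine. Kdm7a-shRNA + Saline mice had 151, 138, 147, 131 and 132 CPM, and Kdm7a-shRNA + Morphine mice had 70.6, 135, 82.8 and 106 CPM. Both Ctrl + Morphine and Kdm7a-shRNA + Saline lay wholly above Ctrl + Saline. The fitted log2 difference of Tspan3 was 0.95 ± 0.18 under saline and -0.40 ± 0.17 under morphine.

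The remaining 4 genes had small differences under morphine, from -0.25 to -0.09 on the log2 scale. Saraf, the brake on store-operated calcium entry, stood at 114, 90.3 and 82.7 CPM in Ctrl + Saline and at 163, 148, 139 and 149 CPM in Ctrl + Morphine. It stood at 204, 190, 184, 146 and 176 CPM in Kdm7a-shRNA + Saline and at 102, 149, 131 and 122 CPM in Kdm7a-shRNA + Morphine. Saraf differed by 0.91 ± 0.14 under saline and by -0.25 ± 0.13 under morphine. Fez2 stood at 23.4, 18.0 and 18.1 CPM in Ctrl + Saline and at 38.1, 35.0, 31.5 and 35.1 CPM in Ctrl + Morphine. It stood at 50.2, 47.4, 48.9, 44.3 and 46.3 CPM in Kdm7a-shRNA + Saline and at 25.9, 44.5, 33.9 and 25.4 CPM in Kdm7a-shRNA + Morphine. Fez2 was the one gene of the 10 in which Ctrl + Morphine lay wholly below Kdm7a-shRNA + Saline. Its fitted log2 difference was 1.26 ± 0.17 under saline and -0.11 ± 0.16 under morphine.

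Poldip2 stood at 79.3, 59.3 and 50.1 CPM in Ctrl + Saline and at 119, 115, 108 and 110 CPM in Ctrl + Morphine. It stood at 131, 121, 109, 118 and 113 CPM in Kdm7a-shRNA + Saline and at 101, 117, 114 and 93.5 CPM in Kdm7a-shRNA + Morphine. For Poldip2 the last 3 groups overlapped one another, and the Ctrl + Saline mice stood below them all. The fitted log2 difference was 0.91 ± 0.13 under saline and -0.09 ± 0.12 under morphine. Pdgfa, the growth factor ligand, stood at 19.8, 13.3 and 14.4 CPM in Ctrl + Saline and at 31.6, 35.4, 31.6 and 27.8 CPM in Ctrl + Morphine. It stood at 40.9, 38.4, 35.2, 29.9 and 34.7 CPM in Kdm7a-shRNA + Saline and at 22.2, 33.2, 26.8 and 32.7 CPM in Kdm7a-shRNA + Morphine. Pdgfa overlapped between those last 3 groups too, and again the Ctrl + Saline mice stood lowest. Its fitted log2 difference was 1.18 ± 0.17 under saline and -0.14 ± 0.16 under morphine.

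**Figure D1:**
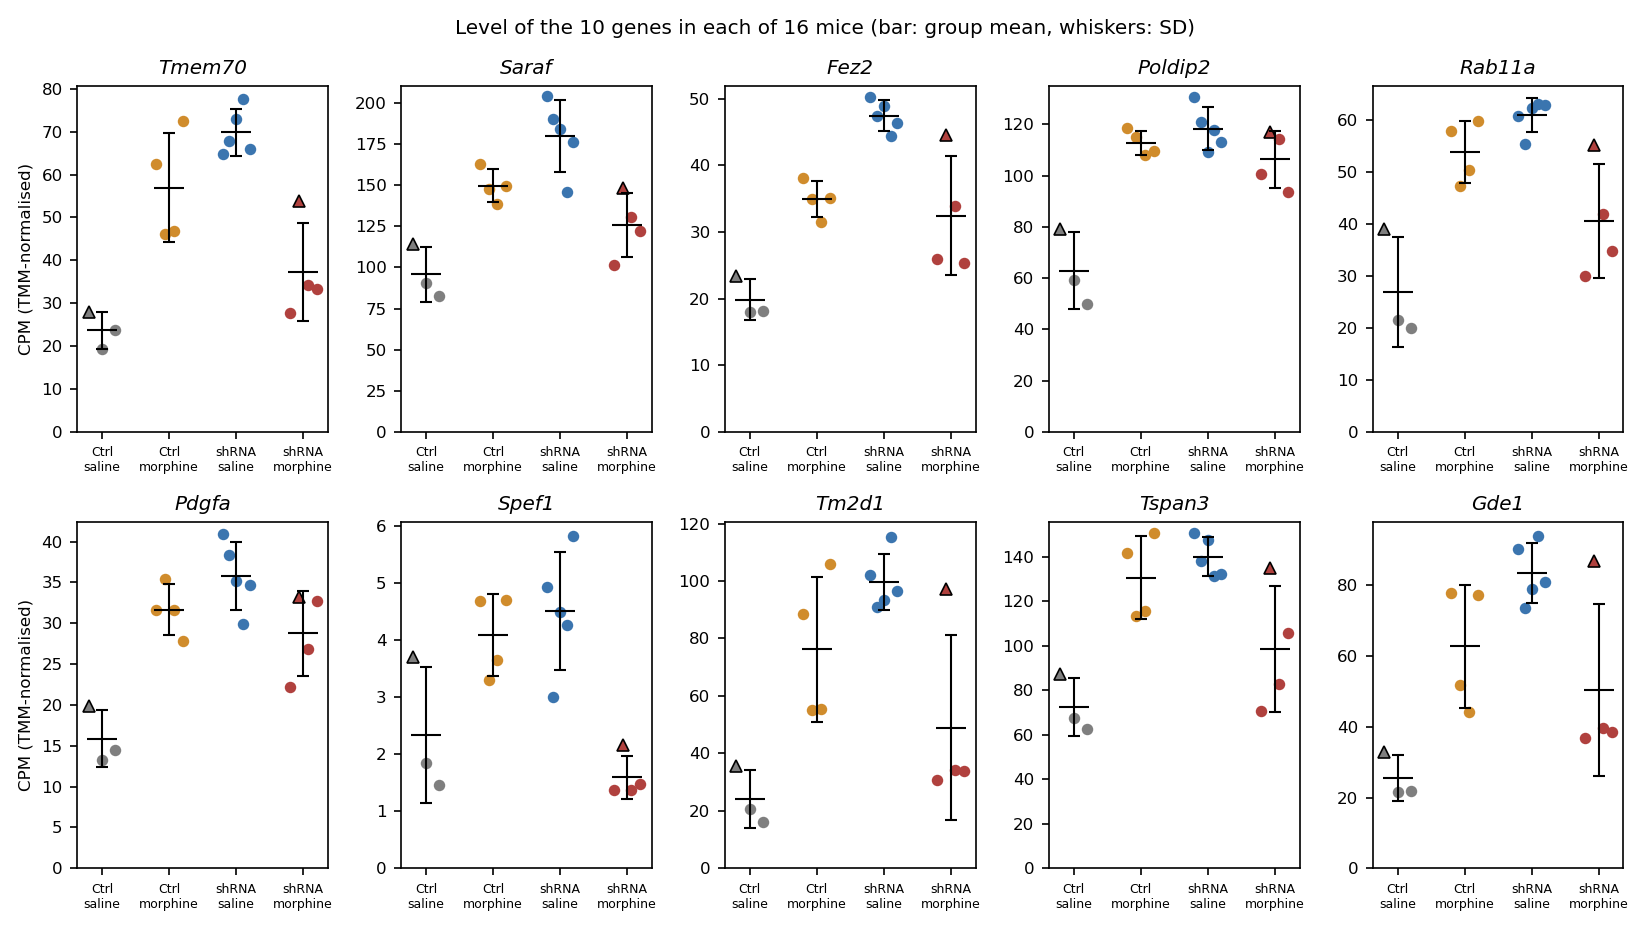
Level of each of the 10 genes (y axis, TMM-normalised CPM) in every mouse, by group, with the group mean as a bar and the SD as whiskers. Triangles are Ctrl + Saline replicate 1 and Kdm7a-shRNA + Morphine replicate 2, each the highest mouse of its group for all 10 genes.

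In 9 of the 10 genes the group means followed one order, rising from Ctrl + Saline through Kdm7a-shRNA + Morphine and Ctrl + Morphine to Kdm7a-shRNA + Saline. Spef1 was the exception, with Kdm7a-shRNA + Morphine lowest. Neighbours in this order often overlapped: Ctrl + Morphine lay wholly below Kdm7a-shRNA + Saline for 1 gene, and Kdm7a-shRNA + Morphine wholly below Ctrl + Morphine for 1 gene. The clearest gap was around Ctrl + Saline, which lay wholly below Kdm7a-shRNA + Saline for 9 genes and wholly below Ctrl + Morphine for 9 genes. Among all tested genes these non-overlaps were found in 7.38%, 7.51%, 11.1% and 7.04%. Kdm7a-shRNA + Morphine lay wholly below Kdm7a-shRNA + Saline for 3 genes, against 0.988% of all tested genes. These orders follow in part from the choice of the genes and are given with no test.

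Knockdown under saline was called as higher for all 10 genes, with a median log2 difference of 1.18 and a range of 0.912 to 2.05. Of all tested genes 16.7% were called in this comparison and 7.43% as higher, so that 44.4% of the calls were higher, or 29.2% with scaling by library size only. Under morphine the 10 values were all below 0, with a median of -0.359 and a range of -1.35 to -0.085, and 2 genes were called, Tmem70 and Spef1. Of all tested genes 7.69% were called under morphine and 4.83% as lower, so that 37.2% of the calls were higher, or 24.0% with scaling by library size only. With a mouse left out, 1 of the 10 genes was called under morphine in 13 fits, 2 in 2 fits and 5 in 1 fit. A fitted value more than 2 SE below 0 was found for 4 of the 10. In the interaction all 10 were called, as the choice of the genes required, with values from -2.69 for Tm2d1 to -0.997 for Poldip2. Of all tested genes 0.085% were called in the interaction and 0.0744% as lower. These counts describe the choice and are not a test of it.

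**Figure D2:**
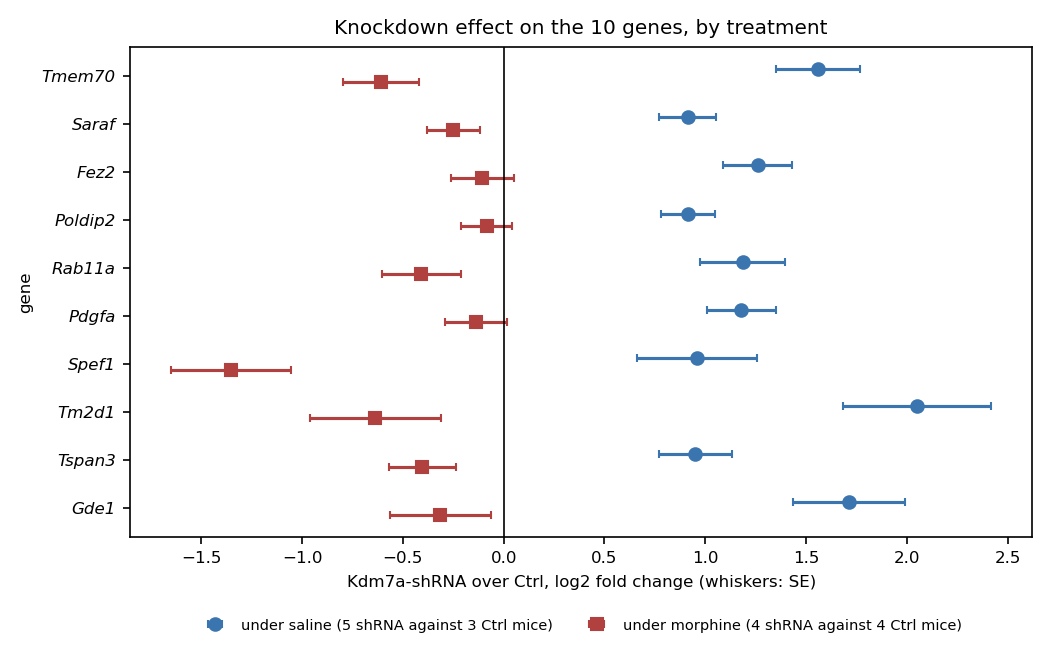
Fitted log2 fold change of Kdm7a-shRNA over Ctrl for each gene under saline (circles) and under morphine (squares), with SE as whiskers. All 10 circles lie right of 0 and all 10 squares left of it, with Fez2, Poldip2 and Pdgfa within 1 SE of 0 under morphine.

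The comparisons of morphine with saline use the same mice and hence share groups with those above. With the control virus, all 10 genes had higher fitted levels after morphine, with a median log2 difference of 0.925 and a range of 0.645 for Saraf to 1.66 for Tm2d1. None of the 10 was called there, and of all tested genes 0% were called by edgeR, although 2205 had an unadjusted p under 0.05 and DESeq2 called 185. With the Kdm7a-shRNA virus, all 10 had lower fitted levels after morphine, with a median of -0.566 and a range of -1.49 for Spef1 to -0.154 for Poldip2. None of the 10 was called there either, and of all tested genes 0.00531% were called by edgeR, with 1321 at an unadjusted p under 0.05 and 20 called by DESeq2. The single gene called was none of the 10.

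Among all tested genes, 3185 (16.9%) had a positive fitted knockdown difference under saline and a negative one under morphine. Beyond the 10, the interaction was called as lower for 4 more genes, Creld2, Dusp28, Sppl2b and Rtraf, and as higher for 2 genes, Ssr3 and Slc25a12. The genes of the 10 nearest the threshold, from Pdgfa at rank 7 to Gde1 at rank 14, shared an adjusted interaction p of 0.0472 in edgeR's fit. Just inside it were Sppl2b and Rtraf at 0.0497, which are not among the 10. Just outside were Atad3a with -1.56, Ppp2r5b with -1.06 and Gm1673 with -2.80 on the log2 scale, all at an adjusted p of 0.0613.

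**Figure D3:**
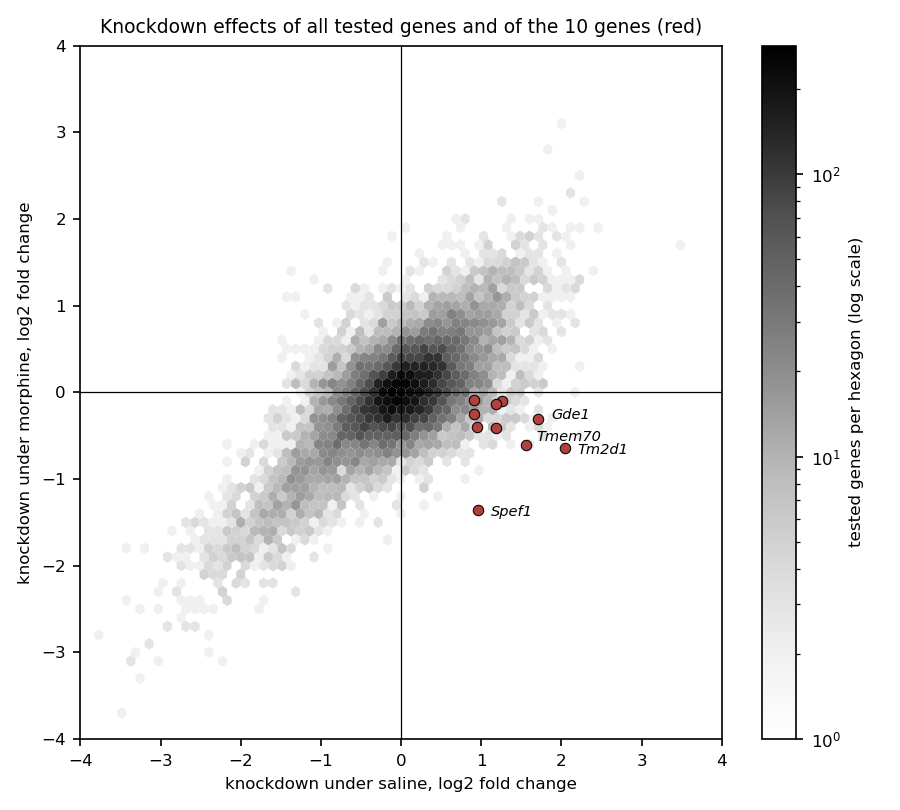
Knockdown log2 fold change under morphine (y axis) against that under saline (x axis) for the tested genes, as hexagons shaded by the number of genes on a log scale, with the 10 genes in red; 47 of 18826 genes lie outside the axes. The 10 genes lie at the lower right of the cloud, with Spef1 the lowest and Tm2d1 the farthest right.

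The calls in the interaction rested on few mice. When each of the 16 mice was left out in turn, the signs of both knockdown effects held for all 10 genes in all 16 fits. All 10 genes stayed called in 3 of these fits, without Ctrl + Saline replicate 1, without Ctrl + Morphine replicate 3 and without Kdm7a-shRNA + Morphine replicate 2. Without Ctrl + Saline replicate 2 or replicate 3, no gene of the 10 was called, at adjusted interaction p-values of 0.0622 to 0.189 and of 0.071 to 0.197. Without Kdm7a-shRNA + Saline replicate 4, 3 genes were called, and in the other 10 fits only Tmem70 was. Tmem70 was called in 14 of the 16 fits. Without both mice that stood apart, an alternative added after the data were seen, all 10 were called and the median interaction moved from -1.48 to -1.9. The number of genes called under morphine was then 4 of 10, and without Kdm7a-shRNA + Morphine replicate 2 alone it was 5 of 10.

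The rule used group differences, so the deviations of each mouse from its group mean were examined separately. Within groups the 10 genes tended to go up and down together, less so without the 2 mice that stood apart. Over the 45 pairs of genes, Pearson's r of the log2 deviations over 16 mice had a median of 0.713, ranged from 0.287 to 0.968 and was positive in all 45 pairs. By a two-sided permutation test that exchanged mice within groups, 27 of the 45 pairs had an adjusted p under 0.05, and 26 by Spearman's rho. Among all pairs of tested genes the median r was 0 and 1.21% of pairs reached 0.713, and among genes with a mean of at least 10 CPM the values were 0.01 and 2.2%. All values share the libraries and their scaling.

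The closest pair was Tm2d1 and Gde1, with r = 0.968 and rho = 0.912 (n = 16, permutation adjusted p = 0.0015 and 0.0139, raw p = 9e-05 and 0.00166). Their r was 0.905 without the pair of mice farthest from the median of Tm2d1. Tmem70 and Gde1 followed, with r = 0.907 and rho = 0.85 (permutation adjusted p = 0.0111 and 0.0168), and r = 0.782 without the farthest pair of mice. Tmem70 and Tm2d1 had r = 0.894 and rho = 0.788 (permutation adjusted p = 0.0144 and 0.0322), and r = 0.719 without them. The lowest values of the 45 pairs were those of Pdgfa. Its r was 0.287 with Tmem70 (rho = 0.191, permutation adjusted p = 0.405 and 0.557), 0.333 with Gde1 (rho = 0.265, permutation adjusted p = 0.347 and 0.412) and 0.345 with Tm2d1 (rho = 0.306, permutation adjusted p = 0.351 and 0.376). Without the farthest pair of mice these values were 0.324, -0.0289 and -0.103. Pdgfa was not apart from all the genes, since its r was 0.793 with Saraf (rho = 0.709, permutation adjusted p = 0.0158 and 0.0351), or 0.63 without the farthest pair of mice, and 0.626 with Tspan3 (rho = 0.606, permutation adjusted p = 0.0781 and 0.103).

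The shared movement was weaker without the 2 mice that stood apart. Kdm7a-shRNA + Morphine replicate 2 lay 1.85 standardised units above its group mean on average over the 10 genes, and Ctrl + Saline replicate 1 lay 1.61 units above. Without both, the median r over the 45 pairs was 0.348 over 14 mice, with 37 pairs positive and a range of -0.393 to 0.906. The other 8 of the 9 Kdm7a-shRNA mice were spread over -1.28 to 0.447 units. In Kdm7a-shRNA + Saline, the group with the highest means, the deviations were the smallest, from -0.227 to 0.447.

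**Figure D4:**
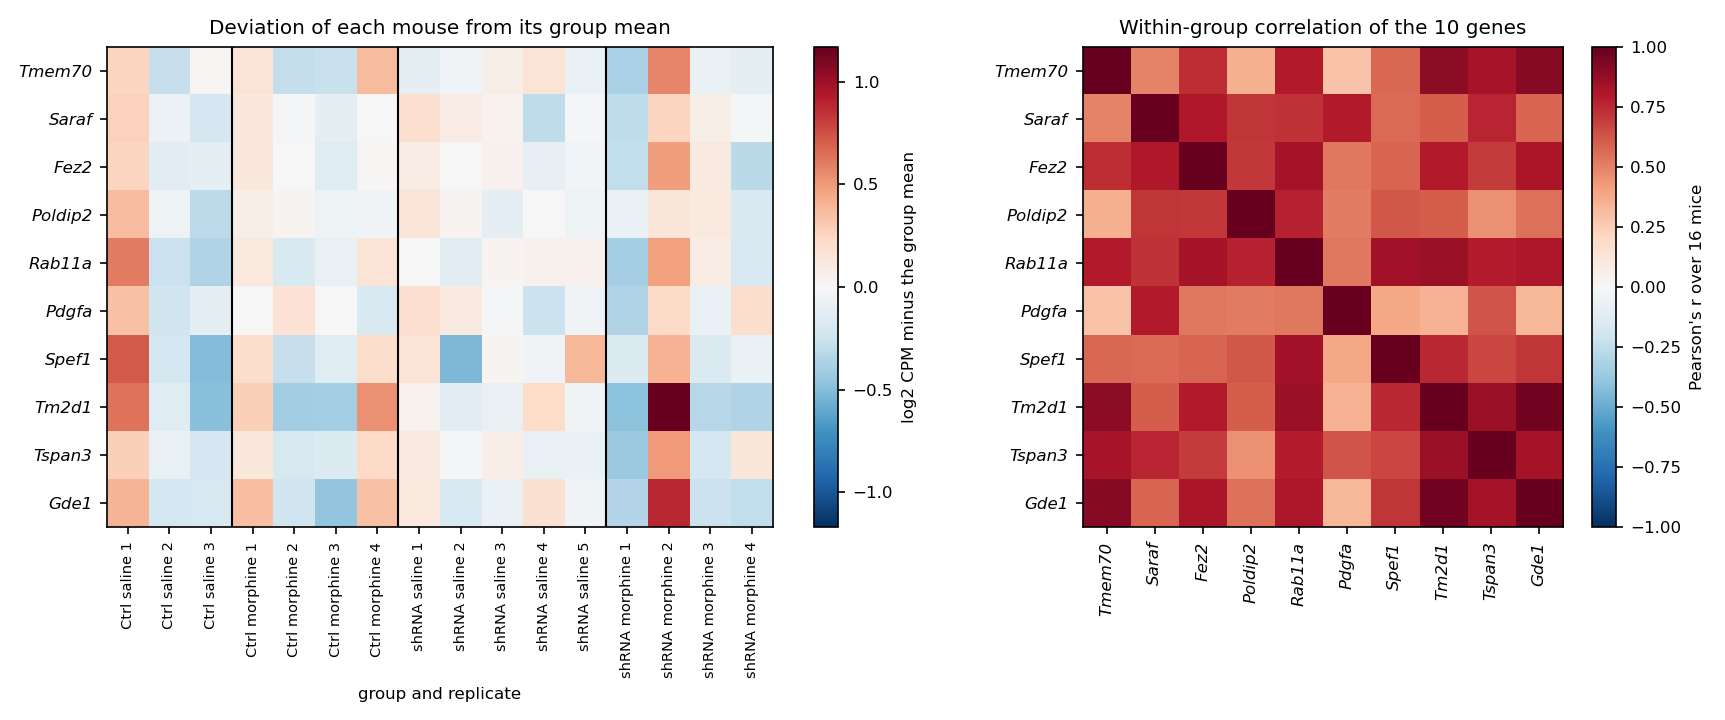
Left, log2 CPM of each gene minus its group mean (color) in each mouse, with lines between the groups; right, Pearson's r between the genes over the 16 mice. The columns of Ctrl + Saline replicate 1 and Kdm7a-shRNA + Morphine replicate 2 are red for all 10 genes, and the row of Pdgfa holds the palest cells of the correlation panel.

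The known genes outside the 10 whose deviations were most like their mean were 1110065P20Rik, Gm1673 and Pdk3, a pyruvate dehydrogenase kinase, with r = 0.961, 0.952 and 0.931 over 16 mice. Their fitted knockdown differences had the same signs as those of the 10 genes. Gm1673 differed by 2.25 under saline and by -0.55 under morphine, 1110065P20Rik by 1.03 and -0.32, and Pdk3 by 0.93 and -0.34. No interaction of these 3 genes was called.

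Measures of the libraries were set against the mean deviation of the 10 genes within groups. Of 7 measures, the share of counts on mitochondrially encoded genes had the strongest relation, with r = -0.59 and rho = -0.594 over 16 mice (permutation p = 0.0701 and 0.05, adjusted p = 0.491 and 0.35). Without the pair of mice farthest from its median, r was -0.547. Total counts, the TMM factor, the share of assembled loci, mean transcript length, Kdm7a CPM and the first component of all genes had r between -0.28 and 0.273, with adjusted p-values of 0.735 by the permutation test. That first component held 22.9% of the variance of the deviations and had r = 0.122 with the 10 genes.

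Between the groups, the mitochondrial share had its lowest range in Kdm7a-shRNA + Saline, where the 10 genes were highest, and its highest range in Kdm7a-shRNA + Morphine, where 9 of the 10 had their next-to-lowest mean. It was 0.797% to 1.22% of counts in Ctrl + Saline, 0.636% to 0.996% in Ctrl + Morphine, 0.539% to 0.841% in Kdm7a-shRNA + Saline and 0.976% to 1.48% in Kdm7a-shRNA + Morphine. The mean log2 CPM of the 10 genes was 4.42 to 5.08, 5.52 to 5.86, 5.87 to 6.05 and 4.92 to 5.76 in the same groups. Other measures differed between the viruses too. The TMM factor was 1.02 to 1.07 in both Ctrl groups, 0.913 to 0.976 in Kdm7a-shRNA + Saline and 0.939 to 0.991 in Kdm7a-shRNA + Morphine. Mean log2 transcript length was 11.219 to 11.294 in Ctrl + Saline and 11.236 to 11.291 in Ctrl + Morphine. It was 11.143 to 11.233 in Kdm7a-shRNA + Saline and 11.153 to 11.245 in Kdm7a-shRNA + Morphine. The part of these measures in the result was not tested.

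**Figure D5:**
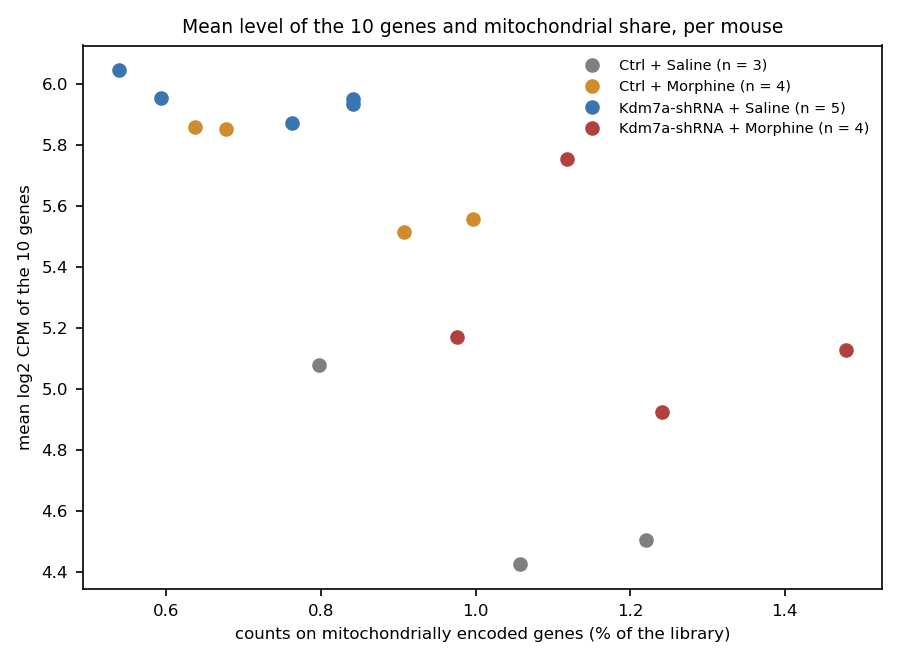
Mean log2 CPM of the 10 genes (y axis) against the percentage of counts on mitochondrially encoded genes (x axis), 1 point per mouse, colored by group. Kdm7a-shRNA + Saline mice lie at the upper left, between 0.539% and 0.841%, and Kdm7a-shRNA + Morphine mice at the right, between 0.976% and 1.48%.

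No gene related to the 10 was called in the interaction by edgeR, where 0.085% of all tested genes were called. At that share, a list of this size without a call says little about the related genes. In 10 lists of related genes, 106 of the 117 listed genes were tested. In the interaction 2022 of all tested genes had an unadjusted p under 0.05 and DESeq2 called 1 of the related genes. Under saline 11 were called higher and 1 lower with knockdown, and under morphine 11 higher and 1 lower. The median log2 difference of the 106 genes was 0.144 under saline and 0.0872 under morphine, against 0.015 and -0.0045 over all tested genes. The counts of called genes are 12 of 106 in each comparison, beside 16.7% and 7.69% of all tested genes. They fell to 6 under saline without Ctrl + Saline replicate 2 or 3, and under morphine to 5 and 4 without Ctrl + Morphine replicate 3 or 4 and to 7 and 3 without Kdm7a-shRNA + Morphine replicate 1 or 3.

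Around Tmem70, 1 of 11 assembly factors was called, Acad9, a complex I assembly factor, at 0.69 ± 0.14 under saline (adjusted p = 0.00336) and 0.11 ± 0.13 under morphine. Around Saraf, 2 of 13 genes of store-operated calcium entry were called. Orai2, a channel subunit, rose by 0.78 ± 0.22 under saline (adjusted p = 0.0207), and Tmco1, a calcium leak channel, rose by 0.65 ± 0.13 under morphine (adjusted p = 0.00723). The sensors and channels Stim1, Stim2, Orai1 and Orai3 were not called. None of 8 partners of the FEZ proteins, 5 PDGF ligands and receptors or 2 other TM2D genes was called in a knockdown comparison. Around Poldip2, 1 of 9 genes was called, Pold4, a subunit of DNA polymerase delta, which rose by 0.77 ± 0.21 under saline (adjusted p = 0.0169).

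Around Rab11a, 3 of 25 genes of the recycling endosome were called. Tfrc, the transferrin receptor that these endosomes carry, rose by 1.13 ± 0.16 under saline and 0.85 ± 0.15 under morphine (adjusted p = 0.000342 and 0.00408). Rab11fip5, a RAB11 effector, rose by 0.79 ± 0.24 under saline (adjusted p = 0.0269), and Myo5a, the myosin motor, fell by 1.01 on the log2 scale under saline (SE 0.23, adjusted p = 0.00573). Among 4 tested ciliary genes Spef2 was called higher under morphine (adjusted p = 0.0287), from a mean of 0.0821 CPM in Ctrl + Morphine to 1.09 CPM in Kdm7a-shRNA + Morphine, so few reads that no fold is given. Around Gde1, Naaa, which breaks down N-acylethanolamines, rose by 0.80 ± 0.25 under saline (adjusted p = 0.0335), and Abhd4, an enzyme of their synthesis, rose by 0.90 ± 0.26 under morphine (adjusted p = 0.0402).

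The tetraspanins gave 5 of the 12 calls under saline and 8 of the 12 under morphine. Of 20 tested tetraspanins other than Tspan3, 5 rose with knockdown under saline, and 7 rose and 1 fell under morphine. Tspan4, Cd9, Cd63, Cd53 and Cd37 rose under both treatments. Tspan4 rose by 1.54 ± 0.31 and 1.32 ± 0.29 (adjusted p = 0.00323 and 0.0106), Cd9 by 1.5 ± 0.40 and 1.67 ± 0.38 (adjusted p = 0.0151 and 0.0125), and Cd82 by 1.22 ± 0.30 under morphine (adjusted p = 0.0176). Tspan17 fell by 0.69 on the log2 scale under morphine (SE 0.18, adjusted p = 0.0258). Under saline Tspan17 was at 0.32 ± 0.19, with the opposite sign, and its interaction of -1.01 ± 0.27 was not called (adjusted p = 0.133). Microglial markers had positive median log2 differences with knockdown too, 1.03 under saline and 0.838 under morphine. The 5 markers summed to 479 to 580 CPM in Ctrl + Saline, 273 to 510 in Ctrl + Morphine, 709 to 2046 in Kdm7a-shRNA + Saline and 482 to 1866 in Kdm7a-shRNA + Morphine. Their part in the tetraspanin result was not tested.

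Of 42 tested markers in 11 lists, 10 were called higher and 1 lower with knockdown under saline, 3 higher under morphine, and 0 in the interaction by edgeR. Of all tested genes 16.7% were called under saline (7.43% as higher), 7.69% under morphine and 0.085% in the interaction. At the last share, 0 calls among the markers says little. Microglial markers were called higher for 4 of 5 genes under saline and 2 of 5 under morphine, among them C1qa at 1.5 ± 0.45 and 1.53 ± 0.42 (adjusted p = 0.0263 and 0.0296), Csf1r at 1.46 ± 0.38 under saline (adjusted p = 0.0128) and Cx3cr1 at 1.16 ± 0.33 under morphine (adjusted p = 0.0372). Of the endothelial markers 3 of 4 rose under saline, Cldn5 by 1.41 ± 0.38, Flt1 by 0.64 ± 0.20 and Pecam1 by 0.68 ± 0.23 (adjusted p = 0.0154, 0.0309 and 0.0442), and Pecam1 rose under morphine by 0.78 ± 0.22 (adjusted p = 0.0323). Cldn5 and Flt1 were not called under morphine, at 0.03 ± 0.34 and -0.11 ± 0.19, and their interactions of -1.39 ± 0.51 and -0.75 ± 0.28 were not called (adjusted p = 0.297 and 0.301). The 4 endothelial markers summed to 121 to 156 CPM in Ctrl + Saline, 131 to 161 in Ctrl + Morphine, 163 to 262 in Kdm7a-shRNA + Saline and 147 to 266 in Kdm7a-shRNA + Morphine, and their part in the result was not tested. Among 3 interneuron markers Slc32a1 rose by 1.10 ± 0.22 and Gad2 fell by 0.63 under saline (SE 0.20, adjusted p = 0.00271 and 0.036). Of 5 astrocyte markers 1 was called, Gfap, which rose by 1.36 ± 0.47 under saline (adjusted p = 0.0485), while Aqp4, Slc1a3, Gja1 and Aldoc were at 0.77, 0.29, -0.04 and -0.22. Of 3 tested ependymal markers 1 was called, Foxj1, which rose by 1.55 ± 0.47 under saline (adjusted p = 0.0282). Within groups, the summed markers of the 11 lists had r between -0.239 and 0.154 with the mean deviation of the 10 genes over 16 mice, given as a description.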

How the data were processed

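RNA from the mPFC of 16 mice was sequenced as full-length cDNA on the Nanopore platform (14 PCR cycles). By the methods given, the authors removed poor and ribosomal reads, aligned full-length reads to mm10 with minimap2, consolidated them and counted them per gene. The deposited counts are the authors' raw counts per gene, and the deposited CPM values are those counts relative to the column total in units of 1e+06, matching to within 4.99e-06. PCR duplicates cannot be told apart from molecules. Depth ran from 6596991 to 12418112 counts per mouse.

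Counts were fitted with edgeR 4.0.16 (R 4.3.3): filterByExpr, TMM, 1 coefficient per group and quasi-likelihood tests, adjusted by Benjamini-Hochberg over 18826 genes. The interaction is the knockdown effect under morphine minus that under saline. SE is the absolute log2 value divided by the square root of F. Within-group correlations used deviations of log2 CPM (prior count 2) and 100000 permutations of mice within groups, the smallest p of which is 1e-05. Scripts were tested on simulated data. Copies of the genes were sought with BLAST 2.17.0 at 90% identity over 300 bases.

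The 10 genes, the related genes and the markers were chosen with earlier results of these data known. By the rule set for naming, named genes are the 10, Kdm7a, per list up to 3 called genes with the smallest adjusted p, and the 3 known genes most like the 10. Those around the threshold and Stim1, Stim2, Orai1 and Orai3 were named after their values were seen. Also named outside that rule were Cd63, Cd53, Cd37, Tspan17, Slc17a7, Camk2a, the astrocyte markers that were not called, and genes that overlap or copy the 10. Alternatives were RLE factors, library size only, other filters, DESeq2 1.42.0, a replicate block and each mouse left out.

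The labels tie replicate numbers to no shared animal or batch. Same-numbered mice of different groups had correlations of deviations from -0.102 to 0.395 (median 0.0139, 21 pairs). Different-numbered ones had correlations from -0.474 to 0.318 (median -0.00725, 74 pairs). A value over 0.1 was found in 6 of the 21 pairs and in 13 of the 74 pairs. Within groups, log2 CPM correlated at 0.951 to 0.981, and no pair of libraries was alike within counting error.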

Additional observations from a re-analysis of the deposited data

Results flagged for a closer look

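In the Kdm7a-shRNA + Morphine group, replicate 2 stood far from the other 3 mice for 3 of the 10 genes, with 97.2 CPM of Tm2d1, 86.8 CPM of Gde1 and 2.16 CPM of Spef1. These are 3 of 30 combinations of a gene and a group examined for a lone mouse, where chance alone flags about 1 in 20, and the 10 genes share the same mice. Ctrl + Saline, with 3 mice, was too small to be examined in this way, so its replicate 1 was not. The nearest other mice of the group had 34.1, 39.5 and 1.48 CPM. For Spef1 the gap rested on few reads, 18 counts in replicate 2 and 9 to 16 in the other mice of the group.

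The knockdown effect differed between saline and morphine for all 10 genes by the interaction term on which they were chosen, so these values describe the choice. They were -2.17 for Tmem70, -1.16 for Saraf, -1.36 for Fez2, -0.997 for Poldip2 and -1.59 for Rab11a on the log2 scale. They were -1.32 for Pdgfa, -2.31 for Spef1, -2.69 for Tm2d1, -1.35 for Tspan3 and -2.03 for Gde1.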

How the results depend on the processing

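The opposite signs of the knockdown effects held for all 10 genes under the alternatives run, except that Spef1 was not tested with at least 10 counts in every mouse, where they held for the other 9. The interaction reversed for none of the genes tested. With 16 mice, and 3 in Ctrl + Saline, the calls were less stable than the signs. With the replicate number as a block, which pairs mice by number only, 6 genes were called in the interaction, 1 of the 10 genes stayed called there, 1 was called under morphine, and 0 genes were called for morphine with the Kdm7a-shRNA virus. RLE factors left 1 of the 10 called under morphine. Without a filter, 34 genes were called in the interaction and 1 of the 10 under morphine. With at least 10 counts in every mouse, which drops Spef1, 1852 genes were called under saline, 697 under morphine and 2 for morphine with the Kdm7a-shRNA virus, with 0 of the 10 under morphine. DESeq2 called 217 genes in the interaction, with 1 related gene, 185 for morphine in Ctrl mice and 20 in Kdm7a-shRNA mice. Scaling by library size only moved the median of all genes to -0.117 under saline and -0.111 under morphine. The medians of the 10 genes were then 1.05 and -0.466.

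With each mouse left out, the ranges were 0 to 266 genes in the interaction, 1424 to 3730 under saline, 568 to 2066 under morphine, 0 to 230 for morphine in Ctrl mice and 0 to 5 in Kdm7a-shRNA mice. Of the 10 genes, 0 to 10 were called in the interaction and 1 to 5 under morphine. Related genes called were 6 to 18 under saline, 3 to 15 under morphine and 0 to 1 in the interaction, and the median correlation was 0.607 to 0.764. Without Ctrl + Saline replicate 1 and Kdm7a-shRNA + Morphine replicate 2 together, chosen after seeing the data, 314, 249 and 15 genes were called in the interaction and for morphine with the Ctrl and the Kdm7a-shRNA virus, 4 of the 10 under morphine, and the median correlation was 0.348. The cause of these changes was not tested, other than that fewer genes or mice entered some fits.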
